A study of Mus musculus with 4 samples.

Results

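The Hedgehog pathway set held 10 genes that were chosen by name, with earlier results of these data known. They were the ligand Shh, the receptor Ptch1, the signal transducer Smo, the co-receptors Gas1, Boc and Cdon, the ligand-binding antagonist Hhip, and the transcription factors Gli1, Gli2 and Gli3. Every probe set annotated to one of these genes alone was taken, which gave 26 of the 45101 probe sets of the array and 10 of the 18194 named genes. The number of probe sets ran from 1 for Gli1 to 4 for Hhip, and 0 probe sets were annotated to a member together with another gene.

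The cells were mouse embryonic stem cells (ESCs) of a Rax::GFP reporter line, in which GFP marks expression of Rax, an early gene of the rostral neuroectoderm. They were grown as serum-free floating aggregates (SFEBq culture) to day 4.5 and sorted by FACS into Rax::GFP+ cells, the rostral fraction, and Rax::GFP- cells, the presumptive caudal fraction, and no treatment was named for either. Each array held RNA pooled from the sorted cells of many aggregates of 1 experiment, with 2 Affymetrix mouse arrays per group described as biological duplicates. The values are RMA log2 values, 1 per probe set and array, so that 1 unit is a 2-fold change and a level can be compared between arrays for 1 probe set but not between probe sets.

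Hedgehog proteins are secreted signals that pattern many embryonic tissues, among them the ventral midline of the brain and spinal cord. Without ligand, Ptch1 holds Smo inactive and the Gli factors are processed to repressors, Gli3 above all. With ligand, Smo signals at the primary cilium, Gli2 and Gli3 act as activators or lose their repressor form, and the direct targets Gli1, Ptch1 and Hhip are transcribed. Gas1, Boc and Cdon bind the ligand and aid its reception, and with Smo, Gli2 and Gli3 they are grouped here as competence genes, which set how a cell can respond. Gas1, Boc, Cdon and Gli3 are known to be transcribed less where Hedgehog signalling is high.

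At an adjusted p under 0.05, 9 of the 26 probe sets had higher values in GFP+ cells and 0 had higher values in GFP- cells (limma, Benjamini-Hochberg over all 45101 probe sets). Over the whole array, 3.82% of probe sets passed with GFP+ cells on top and 3.64% with GFP- cells on top. Both GFP+ arrays lay above both GFP- arrays for 15 of the 26, against 24.9% of all probe sets, and the groups overlapped for 9. The median log2 difference, GFP+ minus GFP-, was 0.18 over the members' probe sets and -0.03 over all probe sets. With each gene read at its most expressed probe set, Gas1, Hhip, Gli1 and Gli3 were higher in GFP+ cells and the other 6 genes were not called. Over all genes read in this way, 2.63% passed with GFP+ cells on top and 5.40% with GFP- cells on top. The probe sets of 5 genes, Ptch1, Smo, Gas1, Hhip and Gli3, disagreed in their call. A log2 value of 5 on at least 2 arrays, used here to mark dim probe sets, was reached by 20 of the 26, and the second Hhip probe set named below reached it on the GFP+ arrays only.

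**Figure D1:**
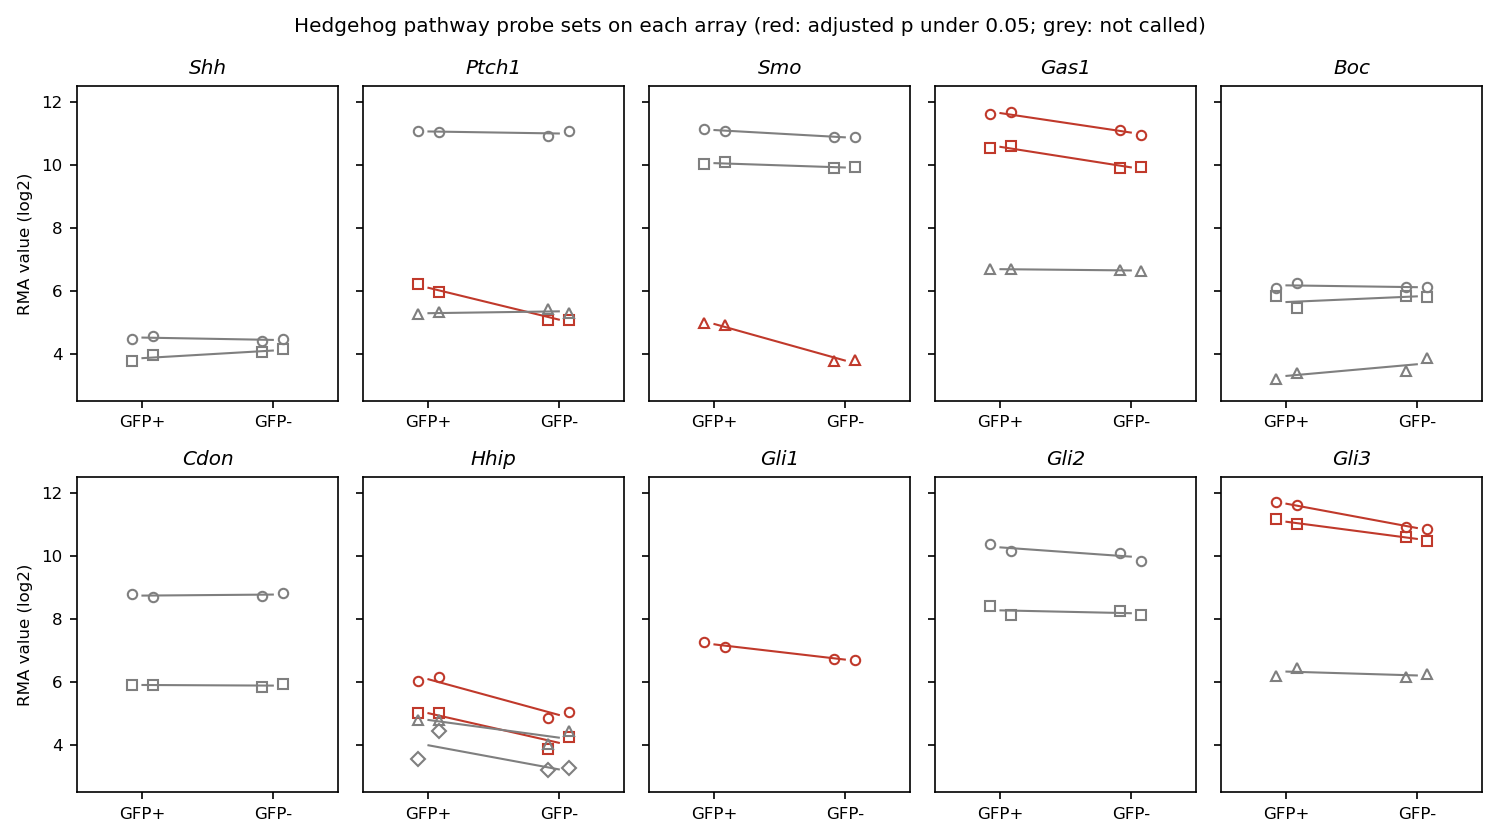
RMA log2 values of the 26 Hedgehog probe sets on each array, with the GFP+ arrays left of the GFP- arrays in each gene's panel, 1 symbol shape per probe set and lines joining the group means. Red marks the 9 probe sets with an adjusted p under 0.05, all of which were higher in GFP+ cells.

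Start-site windows of Hhip, Gas1 and Gli3 are shown because these genes gave called differences at 2 probe sets each. The sequences are RefSeq's for the mouse build GRCm38.p6, 5′ to 3′ on the gene's strand, with 250 bases before the start in lower case and 50 bases after it in capitals. The Hhip window lay at chr8:80057959-80058258 on the minus strand, the Gas1 window at chr13:60177486-60177785 on the minus strand and the Gli3 window at chr13:15463473-15463772 on the plus strand.
Hhip: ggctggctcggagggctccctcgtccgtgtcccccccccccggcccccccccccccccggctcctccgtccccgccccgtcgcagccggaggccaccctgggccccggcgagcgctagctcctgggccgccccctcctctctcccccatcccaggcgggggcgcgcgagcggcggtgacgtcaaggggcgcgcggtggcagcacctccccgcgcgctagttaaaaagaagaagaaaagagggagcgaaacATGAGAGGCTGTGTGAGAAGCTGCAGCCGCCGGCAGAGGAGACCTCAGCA
Gas1: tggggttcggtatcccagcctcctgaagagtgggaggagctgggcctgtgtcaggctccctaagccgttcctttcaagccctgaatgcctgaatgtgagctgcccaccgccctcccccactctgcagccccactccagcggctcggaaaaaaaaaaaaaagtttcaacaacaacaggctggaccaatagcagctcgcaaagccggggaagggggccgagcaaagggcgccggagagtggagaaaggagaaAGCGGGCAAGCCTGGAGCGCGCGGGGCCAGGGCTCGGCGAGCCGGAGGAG
Gli3: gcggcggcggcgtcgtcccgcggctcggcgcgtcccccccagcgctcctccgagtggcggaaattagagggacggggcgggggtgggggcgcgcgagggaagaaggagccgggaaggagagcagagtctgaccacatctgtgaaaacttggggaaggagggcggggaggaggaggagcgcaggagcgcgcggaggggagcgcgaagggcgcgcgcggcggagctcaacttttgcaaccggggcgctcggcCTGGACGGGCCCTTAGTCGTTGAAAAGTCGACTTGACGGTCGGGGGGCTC
The windows were rich in G and C, with 73.7% for Hhip, 62.3% for Gas1 and 71% for Gli3, and held 30, 17 and 39 CpG dinucleotides in that order of genes. A RefSeq window was found for 7 of the 10 members, and Shh, Gli1 and Boc had none in the table used. The Gli consensus GACCACCCA, searched on both strands, was in 0 of the 7 windows and in 0.253% of the 32851 windows of this length. The looser form GACCACNCA, which includes the first, was in 0 of the 7 and in 0.825% of all windows. The lack of a match says only that these letters were not in these windows.

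Shh, the ligand, was called at neither of its probe sets, both of them dim. Its probe set 1427571_at read 4.47 and 4.55 in GFP+ cells, against 4.39 and 4.48 in GFP- cells. Its probe set 1436869_at read 3.76 and 3.96 in GFP+ cells, against 4.05 and 4.14 in GFP- cells. All 8 values were below 5, the first pair of groups overlapped, and the second had both GFP- arrays on top. The log2 differences were 0.07 (95% interval -0.14 to 0.29, adjusted p = 0.624 from limma) and -0.24 (-0.51 to 0.03, adjusted p = 0.224). At values this low the intervals describe the probe sets and set no limit on a change in Shh.

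Hhip binds Hedgehog ligands at the cell surface and is itself induced by the signal, and it had the largest called difference among the 3 direct targets. At its most expressed probe set, 1455277_at, Hhip read 6.02 and 6.16 in GFP+ cells, against 4.86 and 5.06 in GFP- cells. The GFP+ values were both above the GFP- values, by 1.13 on the log2 scale (SE 0.11, 2.19-fold, adjusted p = 0.0144 from limma). Its second probe set, 1421426_at, read 5.02 and 5.01 in GFP+ cells, against 3.88 and 4.27 in GFP- cells, a difference of 0.94 (SE 0.15, adjusted p = 0.0393). The other Hhip probe sets also had both GFP+ arrays on top without passing the test. Probe set 1437933_at differed by 0.56 (95% interval 0.17 to 0.95, adjusted p = 0.0992), and 1438083_at by 0.76 (-0.04 to 1.57, adjusted p = 0.203), where the GFP+ arrays themselves stood apart at 3.56 and 4.44. Of the 4 Hhip probe sets, 3 were below 5 on both GFP- arrays.

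Gli1 is a transcriptional activator whose transcription depends on the pathway, and it is widely used as its readout. Its single probe set, 1449058_at, read 7.27 and 7.13 in GFP+ cells, against 6.73 and 6.71 in GFP- cells. Both GFP+ arrays were above both GFP- arrays, and the log2 difference was 0.48 (SE 0.08, 1.40-fold, adjusted p = 0.0460 from limma). This was close to the threshold, and median centring of the arrays moved the adjusted p to 0.0515.

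Ptch1, the receptor and the third direct target, gave different answers at its 3 probe sets. The most expressed one, 1428853_at, read 11.06 and 11.05 in GFP+ cells, against 10.91 and 11.07 in GFP- cells, so that the groups overlapped and the log2 difference was 0.06 (95% interval -0.17 to 0.30, adjusted p = 0.701 from limma). Probe set 1439663_at read 6.22 and 5.96 in GFP+ cells, against 5.08 and 5.08 in GFP- cells, with no overlap and a difference of 1.01 (SE 0.11, adjusted p = 0.0190). Probe set 1450824_at overlapped between the groups and differed by -0.06 (95% interval -0.29 to 0.17, adjusted p = 0.728). The files do not say which transcripts each probe set reads, and Ptch1 was called higher in GFP+ cells by 1 probe set of 3.

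Among the competence genes, Gli3 and Gas1 were higher in GFP+ cells at 2 probe sets each. Gli3 is the main Gli repressor of the neural tube and the forebrain. At 1456067_at it read 11.71 and 11.62 in GFP+ cells, against 10.94 and 10.85 in GFP- cells, a difference of 0.77 (SE 0.08, 1.70-fold, adjusted p = 0.0180 from limma). At 1455154_at it read 11.18 and 11.01 in GFP+ cells, against 10.61 and 10.50 in GFP- cells, a difference of 0.54 (SE 0.10, adjusted p = 0.0469). The groups were apart at both, while at the third probe set, 1450525_at, they overlapped with a difference of 0.12 (95% interval -0.18 to 0.43, adjusted p = 0.558). The call at 1455154_at was near the threshold, with an adjusted p of 0.0531 after median centring of the arrays.

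Gas1, a membrane-anchored protein that binds Shh, read 11.61 and 11.66 in GFP+ cells, against 11.10 and 10.94 in GFP- cells at 1416855_at. The difference there was 0.62 (SE 0.09, 1.53-fold, adjusted p = 0.0334 from limma). At 1448494_at Gas1 read 10.53 and 10.61 in GFP+ cells, against 9.91 and 9.92 in GFP- cells, a difference of 0.65 (SE 0.07, 1.57-fold, adjusted p = 0.0210). These estimates differed by less than their standard errors. The third probe set, 1456322_at, had its 4 values between 6.63 and 6.69, a difference of 0.04 (95% interval -0.15 to 0.23, adjusted p = 0.772).

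Smo, the membrane protein that passes the signal into the cell, was higher on both GFP+ arrays at all 3 probe sets but passed the test only at the one below 5. Probe set 1427049_s_at read 11.14 and 11.06 in GFP+ cells, against 10.87 and 10.87 in GFP- cells, a difference of 0.23 (95% interval 0.03 to 0.43, adjusted p = 0.142 from limma). Probe set 1427048_at differed by 0.14 (-0.06 to 0.33, adjusted p = 0.317). Probe set 1442215_at read 4.96 and 4.92 in GFP+ cells, against 3.77 and 3.80 in GFP- cells, a difference of 1.16 (SE 0.07, adjusted p = 0.00761), with all 4 values below 5. This was the lowest adjusted p of the 26 probe sets, and it came from a probe set under the level used to mark dim ones. With an intensity trend in the variance, 1427049_s_at also passed, at an adjusted p of 0.0232.

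Boc and Cdon, the immunoglobulin-superfamily co-receptors, were not called at any of their 5 probe sets. Cdon read 8.79 and 8.71 in GFP+ cells, against 8.74 and 8.83 in GFP- cells at 1434957_at, with overlapping groups and a difference of -0.03 (95% interval -0.24 to 0.18, adjusted p = 0.840 from limma). Boc read 6.09 and 6.25 in GFP+ cells, against 6.12 and 6.10 in GFP- cells at 1427516_a_at, also overlapping, with a difference of 0.06 (-0.18 to 0.29, adjusted p = 0.738). The remaining Boc probe sets differed by -0.18 and -0.37 with adjusted p-values of 0.517 and 0.255, and the remaining Cdon probe set by 0.02 with an adjusted p of 0.910. For the most expressed Boc and Cdon probe sets, a difference as large as that of Gas1 or Gli3 at theirs lay outside the 95% interval. The Boc values there were near the array medians of 5.84 to 5.89, so its interval describes the probe set and sets no limit on a change in Boc.

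Gli2, the main Gli activator in the mouse, read 10.40 and 10.16 in GFP+ cells, against 10.12 and 9.86 in GFP- cells at 1459211_at. Both GFP+ arrays were above both GFP- arrays, but by a narrow margin, and the difference of 0.29 did not pass (95% interval -0.06 to 0.65, adjusted p = 0.256 from limma). At 1446086_s_at the groups overlapped and the difference was 0.09 (-0.24 to 0.42, adjusted p = 0.705). Its interval at 1459211_at included the called differences of Gas1 and that of Gli3 at 1455154_at, but not the 0.77 of Gli3 at 1456067_at, and the differences between these genes were not tested.

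**Figure D2:**
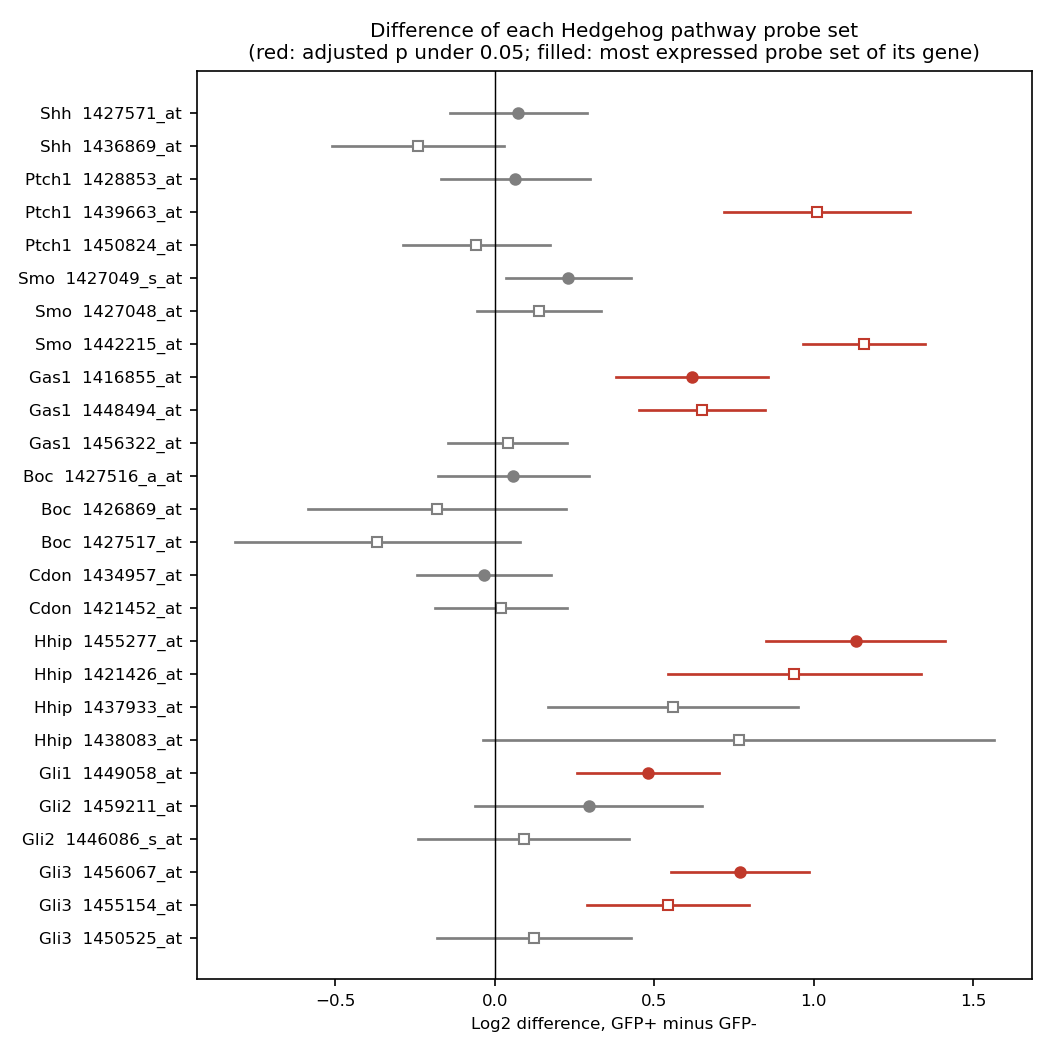
Log2 difference, GFP+ minus GFP-, of each of the 26 Hedgehog probe sets with its 95% interval, ordered by role. Red marks an adjusted p under 0.05 and filled circles mark the most expressed probe set of each gene, and the 9 red intervals lie above 0 while the lowest point is -0.37 for Boc.

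The direct targets and the competence genes were then set side by side, and both classes held called genes. Of the 3 direct targets, 2 were called higher in GFP+ cells at their most expressed probe set, with a median difference of 0.48 over Gli1, Ptch1 and Hhip and a range of 0.06 to 1.13. Of the 6 competence genes, 2 were called, with a median of 0.26 and a range of -0.03 to 0.77. By probe sets, 4 of 8 for the direct targets and 5 of 16 for the competence genes passed with GFP+ cells on top, against 3.82% of all probe sets. With GFP- cells on top 0 passed in either class, against 3.64% of all probe sets. Of all genes at their most expressed probe set, 2.63% were higher in GFP+ cells. The ranges of the classes overlapped and the difference between them was not tested. Gli1 and Hhip, which the pathway induces, and Gas1 and Gli3, which it is known to reduce, were thus higher in the same sorted fraction. Whether they were higher in the same cells cannot be read from pooled RNA. Ptch1, the third direct target, was not called at its most expressed probe set, with a difference of 0.06. When each gene was read as the mean of all its probe sets, Ptch1 at 0.34 (adjusted p = 0.0309 from limma) and Smo at 0.51 (adjusted p = 0.00895) were called in addition to Gas1, Hhip, Gli1 and Gli3, a reading in which a dim probe set weighs as much as a bright one.

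The calls rested on all 4 arrays and on the fit without pairing. With the replicate number as a block 0 of all probe sets passed, and the 9 members' adjusted p-values lay between 0.0603 and 0.113 (limma). Leaving out GFP+ replicate 2 left 4 of the members' probe sets called, leaving out GFP+ replicate 1 left 2, and leaving out either GFP- array left 0. The 2 without GFP+ replicate 1 were Smo 1442215_at and Hhip 1438083_at, and the second of these was not among the 9. Over the whole array 1919 probe sets were then called with GFP+ on top and 1059 with GFP- on top without GFP+ replicate 2, and 342 and 478 in that order without GFP+ replicate 1, against 1725 and 1642 on all 4 arrays. In the fits without a GFP- array 0 of all 45101 probe sets passed limma's adjusted threshold either, while 7704 and 7697 had an unadjusted p under 0.05. All 9 called probe sets stayed positive in each of the 4 fits, but this sign was fixed in advance. At each of them both GFP+ arrays lay above both GFP- arrays, so leaving out 1 array could not reverse it. The Hhip difference at 1455277_at ran from 1.03 to 1.23, that of Gli3 at 1456067_at from 0.72 to 0.82, that of Gas1 at 1448494_at from 0.61 to 0.69 and that of Gli1 from 0.41 to 0.55.

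**Figure D3:**
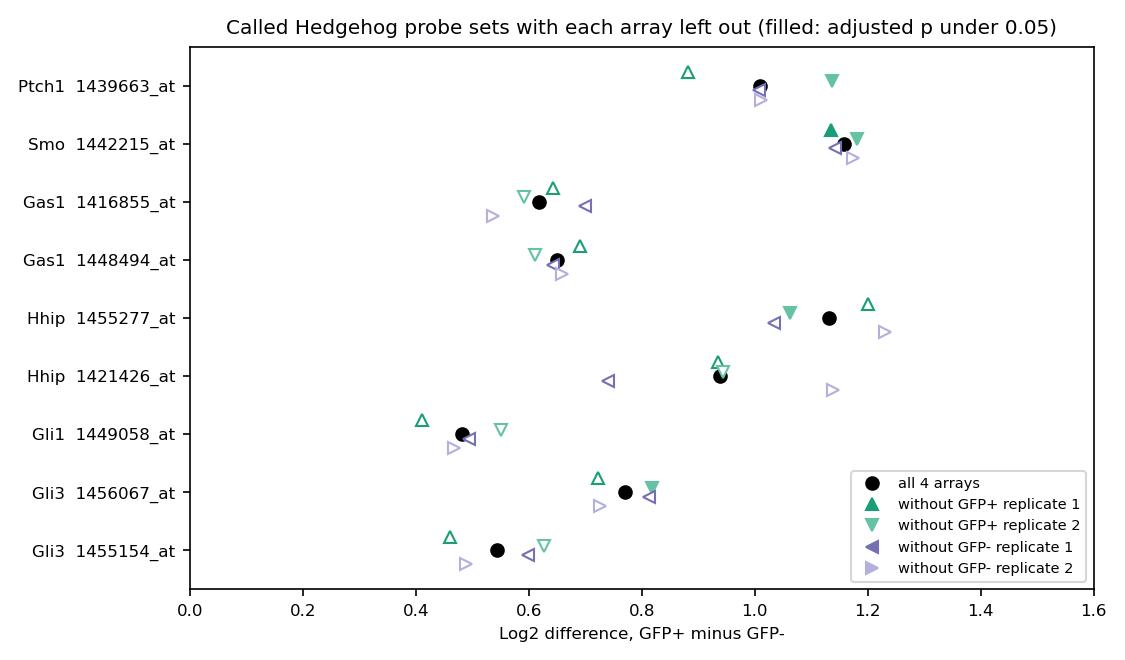
Log2 difference, GFP+ minus GFP-, of the 9 called Hedgehog probe sets with all 4 arrays (black circles) and with each array left out (triangles). Filled symbols have an adjusted p under 0.05, and open triangles are lost calls. All points lie above 0, as they must where both GFP+ arrays exceed both GFP- arrays.

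Of 51 other genes listed for the pathway, 47 were measured by a probe set of their own, of which 4 were higher in GFP+ cells and 1 in GFP- cells at the most expressed probe set, against 2.63% and 5.40% of all genes. The median difference was 0.08 over the 47 and -0.05 over all genes. Among 8 genes of ligand maturation and release, 3 were higher in GFP+ cells and 0 in GFP- cells, all of them Scube genes, whose secreted products help release lipid-modified Hedgehog from producing cells. Scube2 read 10.48 and 10.20 in GFP+ cells, against 8.96 and 8.69 in GFP- cells, a difference of 1.52 (SE 0.15, 2.87-fold, adjusted p = 0.0152 from limma). Scube1 read 7.45 and 7.63 in GFP+ cells, against 6.98 and 6.86 in GFP- cells, a difference of 0.62 (adjusted p = 0.0392). Scube3 read 8.39 and 8.32 in GFP+ cells, against 7.93 and 7.84 in GFP- cells, a difference of 0.47 (adjusted p = 0.0428). The Scube2 groups stood furthest apart, and Scube1 and Scube3 were near the threshold, with adjusted p-values of 0.0593 after quantile normalization and 0.0513 after median centring. Disp1, which exports the ligand, differed by 0.04 (adjusted p = 0.798). Ihh, another Hedgehog ligand, averaged 5.06 ± 0.64 in GFP+ cells and 6.13 ± 0.18 in GFP- cells (SD, n = 2 each), a difference of -1.08 that did not pass (95% interval -1.93 to -0.22, adjusted p = 0.125).

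The lists further down the pathway were too short for their counts to be told from those shares of all genes. Of 6 measured membrane regulators 0 passed in either direction, with a median difference of 0.25, and among them were Gpc3, a glypican that competes for the ligand, at 0.36 (adjusted p = 0.0707 from limma) and Lrp2, an endocytic receptor for Shh in the forebrain, at 0.51 (adjusted p = 0.0875). Of 12 genes of Gli processing, 0 passed and the median difference was -0.0033, with Csnk1a1 at -0.04 and Cul3 at 0.01, which encode a kinase and a ubiquitin ligase scaffold that act on Gli proteins. Of 7 measured genes of the primary cilium, 1 was higher in GFP+ cells and 0 in GFP- cells, with a median difference of 0.02. The called gene was Dync2h1, the heavy chain of the motor for return transport in the cilium. It read 8.43 and 8.49 in GFP+ cells, against 7.97 and 8.02 in GFP- cells, a difference of 0.47 (adjusted p = 0.0389 from limma). Tulp3 and Ift122, the most expressed genes of this list that did not pass, differed by -0.25 and 0.02 (adjusted p = 0.124 and 0.917 from limma).

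Of 14 further genes known to respond to Hedgehog in various tissues, 0 were higher in GFP+ cells and 1, Foxa2, was higher in GFP- cells. Foxa2, a forkhead factor of the floor plate, the notochord and the endoderm, averaged 5.99 ± 0.19 in GFP+ cells and 8.09 ± 0.13 in GFP- cells (SD, n = 2 each), a difference of -2.10 (SE 0.13, adjusted p = 0.00733 from limma). It thus ran against Gli1 and Hhip with no overlap between the groups. Nkx2-1, which marks the ventral forebrain and depends on Shh there, read 5.59 and 5.78 in GFP+ cells, against 5.54 and 5.63 in GFP- cells, overlapping with a difference of 0.10 (95% interval -0.16 to 0.37, adjusted p = 0.586). Mycn, a proliferation factor, and Ccnd1, a cyclin that promotes entry into the cell cycle, did not pass, with differences of -0.17 and 0.14. Ccnd2, another cyclin, had the largest positive difference of the list, 0.75, and did not pass either (95% interval 0.29 to 1.21, adjusted p = 0.0761 from limma). The median difference over the 14 genes was 0.07. Nkx2-2, Nkx6-2, Olig2 and Foxc2 read below 5 on every array, and Nkx2-1 read below the array medians. Values this low describe the probe sets and set no limit on a change in these genes. The count of 0 higher in GFP+ cells and the median include them, so neither shows a lack of response.

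**Figure D4:**
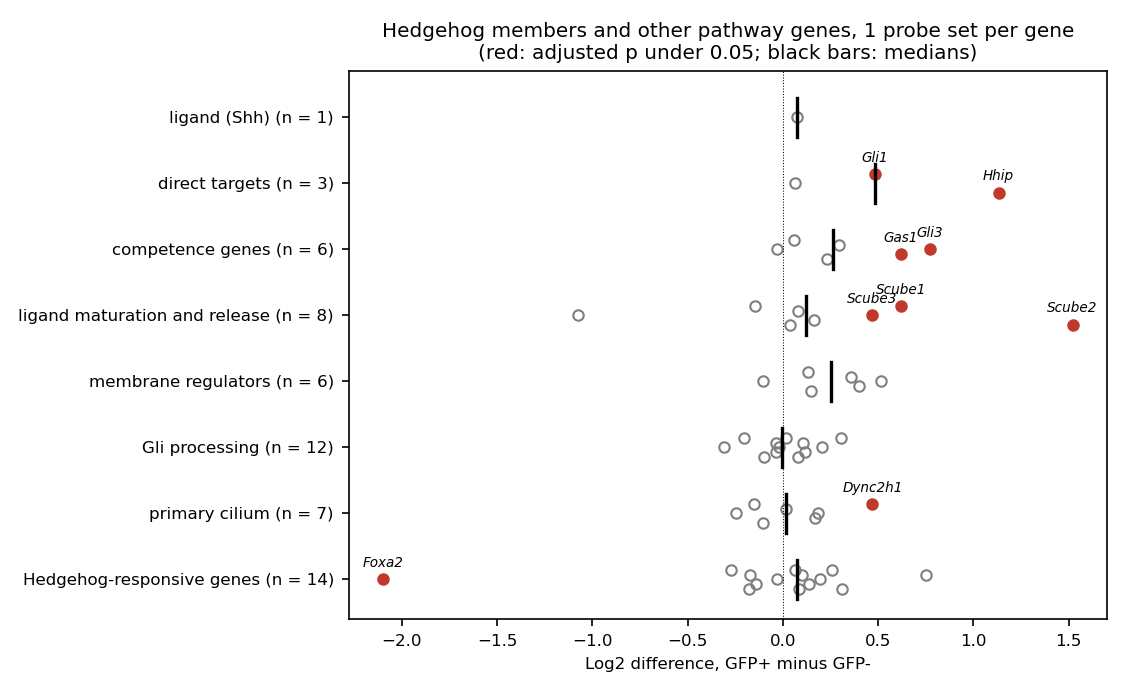
Log2 difference, GFP+ minus GFP-, of the 10 Hedgehog genes by class and of the 47 other pathway genes by list, 1 point per gene at its most expressed probe set, with black bars for medians. Red named points have an adjusted p under 0.05, and they lie between 0.47 and 1.52 except Foxa2 at -2.10.

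The sorted fractions differed widely in other genes. Rax, the gene behind the sort, was 2.05 higher in GFP+ cells on the log2 scale and the caudal gene Irx3 was 2.59 lower (-2.59), both past the threshold. The rostral gene Six3 was called at 1 of 3 probe sets, with differences of 0.85, 0.79 and 0.07, and the 3 Gapdh probe sets, at 0.02, -0.15 and -0.12, were not called. GFP+ cells had higher values for 7 of 9 measured forebrain and eye field markers, and GFP- cells for 4 of 9 measured midbrain and hindbrain markers. Of 10 markers of pluripotent cells, 8 were higher in GFP- cells, with the log2 of their summed level at 10.90 and 10.85 in GFP+ cells, against 13.53 and 13.60 in GFP- cells. Of 9 measured endoderm markers, 5 including Foxa2 and Sox17 were higher in GFP- cells and Foxa1 was higher in GFP+ cells, with the log2 of the sum at 9.18 and 9.66 in GFP+ cells, against 11.36 and 11.47 in GFP- cells. Such a sum is weighted towards its brightest probe sets and is not the level of a cell type. In GFP- cells the brightest were those of Dppa5a and Pou5f1 among the pluripotent markers and that of Ttr among the endoderm markers. Of 4 measured markers of node and notochord, which secrete Shh in the embryo, 1 was higher in GFP- cells, again Foxa2. Among 6 markers each of early mesoderm, neural crest and neurons, 0, 1 and 1 passed with GFP+ cells on top, and 1, 2 and 0 with GFP- cells on top. Over all genes, 2.63% passed with GFP+ cells on top and 5.40% with GFP- cells on top. A count of 1 in a list of 4 or 6 markers cannot be told from those shares. RMA values have no 0, so absence of a marker cannot be read from them, and the part of these cells in the Hedgehog differences was not tested. In such bulk samples fewer cells of a type and less RNA per cell cannot be told apart.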

How the data were processed

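Total RNA of day-4.5 Rax::GFP+ and Rax::GFP- cells was measured on 4 Affymetrix arrays, 2 per group. The authors deposited log2 values made by RMA, a method that removes background, equalizes the distributions of the arrays and summarizes each probe set, which hides any change in total RNA between groups. The submitters' processing notes name R 2.13.0. Array medians were 5.89 and 5.88 in GFP+ cells, against 5.84 and 5.86 in GFP- cells, and the number of arrays limits the precision.

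Groups were compared with limma (version 3.58.1, R version 4.3.3) on all 45101 probe sets, unfiltered and unblocked, with a moderated two-sided test and Benjamini-Hochberg adjustment over the whole array (2 residual and 2.52 prior degrees of freedom, threshold 0.05). An exact permutation test of 2 against 2 arrays cannot go below p = 0.333, so none was used. The array's 64 control probe sets were kept. Names came from the platform annotation, in which 34958 probe sets had 1 symbol, 932 several and 9211 were unnamed here, and 0 symbols differed from the GRCm38.p6 gene table. A gene was read at the probe set with the highest mean over all arrays. The fit was also run on simulated data with known changes, and its outcome there is not reported here.

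Members and gene lists were chosen with earlier results of these data known. All members were named with their probe sets, and of each pathway list up to 4 genes that passed and up to 2 with the highest mean value among those that did not, besides Foxa2, Nkx2-1, Rax, Six3, Irx3 and Gapdh. Ihh and Ccnd2 were added after their values were seen. Of the listed pathway genes, 4 were not analysed here. Alternatives were a replicate block, Storey's q-value (the study's methods name a q-value without its estimator), a filter on dim probe sets, median centring, quantile normalization, an intensity trend, array weights, the mean of a gene's probe sets and leaving out each array, where a lone array was taken to vary like the other group.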

Additional observations from a re-analysis of the deposited data

How the results depend on the processing

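Among the members' 26 probe sets, the 9 calls all held under quantile normalization, array weights and an intensity trend. Storey's q-value was the adjusted p multiplied by 0.579 here, so it could only add calls and not lose any of the 9. Median centring lost Gli1 and the second Gli3 probe set, and each call on a probe set that passed the filter on dim ones held with it. Hhip 1421426_at passed that filter only through its GFP+ arrays, at 5.02 and 5.01. Hhip 1455277_at read 4.86 and 5.06 in GFP- cells, so it also needed a GFP+ array to pass. The filter cannot speak for either of these Hhip calls. With the replicate number as a block, 0 probe sets of the whole array passed (11019 had an unadjusted p under 0.05), so the counts of members' probe sets, members and other pathway genes higher in GFP+ cells, and of pathway genes higher in GFP- cells, were 0, and adjusted p-values of the 9 lay between 0.0603 and 0.113. Whether same-numbered arrays came from the same sort is not settled by the labels or by 2 pairs: their deviations from the group means correlated at -0.05 over all probe sets and 0.03 over those with 1 symbol.

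Leaving out each array in turn, the members' probe sets higher in GFP+ cells numbered 0 to 4, members by their most expressed probe set 0 to 2, and other pathway genes 0 to 1 in GFP+ cells and 0 to 2 in GFP- cells, with 0 throughout when either GFP- array was left out. Other pathway genes higher in GFP+ cells numbered 7 with Storey's q-value, 9 with an intensity trend and 8 with the mean of a gene's probe sets, and those higher in GFP- cells 4 with the trend. Over the whole array, 3239 probe sets passed with GFP+ cells on top and 2895 with GFP- cells on top under Storey's q-value, and 3732 and 3230 with the trend, against 1725 and 1642. With the mean of a gene's probe sets 845 genes were higher in GFP+ cells and 1631 in GFP- cells, against 478 and 982. The rise under Storey's q-value follows from its factor of 0.579, and the cause of the other rises was not tested.

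Only probe sets that were not called changed sign. Cdon 1421452_at was at -0.0192 after centring and -0.0209 after quantile normalization, and Gas1 1456322_at at -0.0193 after the second. Leaving out each array in turn, the difference ran from -0.0162 to 0.146 for Ptch1 1428853_at, from -0.126 to 0.00887 for Ptch1 1450824_at, from -0.0261 to 0.142 for Boc 1427516_a_at, from -0.383 to 0.0226 for Boc 1426869_at, from -0.0755 to 0.00959 for Cdon 1434957_at, from -0.0317 to 0.0709 for Cdon 1421452_at, from -0.0508 to 0.231 for Gli2 1446086_s_at and from -0.0038 to 0.249 for Gli3 1450525_at.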
